A study of Mus musculus with 18 samples.

Results

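Arginase and polyamine metabolism was followed here through 10 genes of the deposited count table. These were the arginases Arg1 and Arg2, the ornithine decarboxylase gene Odc1 with its regulators Azin1 and Oaz1, the synthesis genes Amd1, Srm and Sms, and the breakdown genes Smox and Sat1. They were taken by name from 49585 annotated genes, and each of the 10 passed the filter on low counts in both fits used below. The rule holds names alone and no threshold. The genes were nevertheless chosen by someone with results of these data in view, and which measured values of these 18 libraries entered the choice was not recorded. Every value here is therefore from libraries the choice may have used: the counts are read only against the share of all tested genes that were called, and the p-values give the size of a difference against the replicate spread without being independent support.

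The study asked which leukocytes leave an inflamed joint or skin for the draining lymph node and which stay behind. Kaede mice carry a protein that turns from green to red under violet light, so that cells lit in a tissue can be found again elsewhere. Inflamed mice received in vitro polarized OT-II Th1 cells intravenously and ovalbumin in complete Freund's adjuvant, and were then challenged with heat-aggregated ovalbumin (HAO) in the footpad (joint) or the ear pinna (skin). From inflamed mice, viable CD45+ Kaede red+ cells were sorted 1 day after the light exposure. The 4 inflamed groups were joint nonmigrated, joint migrated (red cells in the joint-draining node), skin nonmigrated (ear) and skin migrated (red cells in the skin-draining node). The 2 steady-state groups were CD45+ cells labelled as migrated from joint or ear to the node without inflammation. The joint steady-state titles name PBS and an unexplained KG, and the skin ones naive mice, so these 2 groups may differ in more than the site. Whether the steady-state cells were sorted as Kaede red was not clear from these labels. Inflamed and steady-state node groups may therefore differ in the cells sorted as well as in inflammation, and these cannot be told apart. Each group held 3 libraries (18 in all). The paper describes those of the 4 inflamed groups as taken from pooled male and female mice.

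Arginase splits arginine into urea and ornithine, Arg1 in the cytosol and Arg2 in mitochondria, and so competes with inducible nitric oxide synthase (Nos2) for the same substrate. Ornithine decarboxylase turns ornithine into putrescine, and spermidine synthase (Srm) and spermine synthase (Sms) lengthen it with aminopropyl groups that S-adenosylmethionine decarboxylase (Amd1) provides. Spermine oxidase (Smox) and the acetyltransferase of Sat1 run the route backward, antizyme (Oaz1) sends ornithine decarboxylase to the proteasome, and the antizyme inhibitor of Azin1 binds antizyme away from it. In mice Arg1 is best known from macrophages and other myeloid cells.

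Levels are given as counts per 1000000 reads in genes (CPM), scaled by TMM (trimmed mean of M values), with libraries 1, 2 and 3 in that order. The quasi-likelihood test of edgeR was used throughout, and a difference was called where it exceeded 1 on the log2 scale in either direction (2-fold) and its p, adjusted by Benjamini-Hochberg over all tested genes, was under 0.05. Libraries held 19239531 to 43814403 counts in genes, and 3 counts, the floor used here, were worth 0.0616 to 0.180 CPM. All 6 inflamed skin libraries were smaller (19239531 to 22528895) than the 6 inflamed joint libraries (35554698 to 43814403), so library size and site cannot be told apart. The leukocyte marker Ptprc (CD45) stood at 1156 to 2531 CPM in all 18 libraries. The sum of 10 monocyte and macrophage markers was 19380 to 24960 CPM in joint nonmigrated, 3527 to 13580 in skin nonmigrated, 152 to 362 in joint migrated and 308 to 570 in skin migrated libraries, with none of the 10 at 0. Skin nonmigrated library 3 stood apart, with the highest macrophage sum of its group (13580 CPM against 5390 and 3527) and the lowest keratinocyte sum (23.3 CPM against 135 and 272). In sorted bulk RNA, fewer cells of a type and less RNA per cell cannot be told apart.

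Short stretches of coding sequence show what gene counts can and cannot resolve for the polyamine regulators. The first pair shows why Amd1 counts are uncertain. Its coding part of 1002 bases is identical to that of the gene Amd2 at 1001 positions, and differs at G796C (Amd1 base, position from the first base of the start codon, Amd2 base), the capital below. The strands read are minus for both, at chr10:40290174-40290198 for Amd1 and chr10:35710752-35710776 for Amd2 (GRCm38).
Amd1: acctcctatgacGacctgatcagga
Amd2: acctcctatgacCacctgatcagga
The second pair shows the stop codon (capitals) that ribosomes must slip past by 1 base, when polyamines are plentiful, to make full-length antizyme. It lies in coding sequence at chr10:80828282-80828308 (plus strand, model Oaz1-205) and chr9:65686259-65686285 (plus strand, model Oaz2-203).
Oaz1: tcggtggtgctccTGAtgtccctcacc
Oaz2: tctgtggtgctccTGAtgcccctcacc
Control at this stop acts on translation, and a count of Oaz1 or Oaz2 reads holds nothing about it. The other pairs were far less alike in their aligned coding bases: Arg1 and Arg2 shared 64.9%, Odc1 and Azin1 62.3%, Srm and Sms 61.8%, and Oaz1 and Oaz2 66.1%.

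Across the 6 groups the genes fell into 3 patterns. The arginases, Smox and, less steeply, Sat1 and Azin1 had their highest means in the cells that stayed in the tissue. Srm and Sms were lowest there. Oaz1 hardly moved, and Odc1 and Amd1 varied as much within groups as between most of them.

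**Figure D1:**
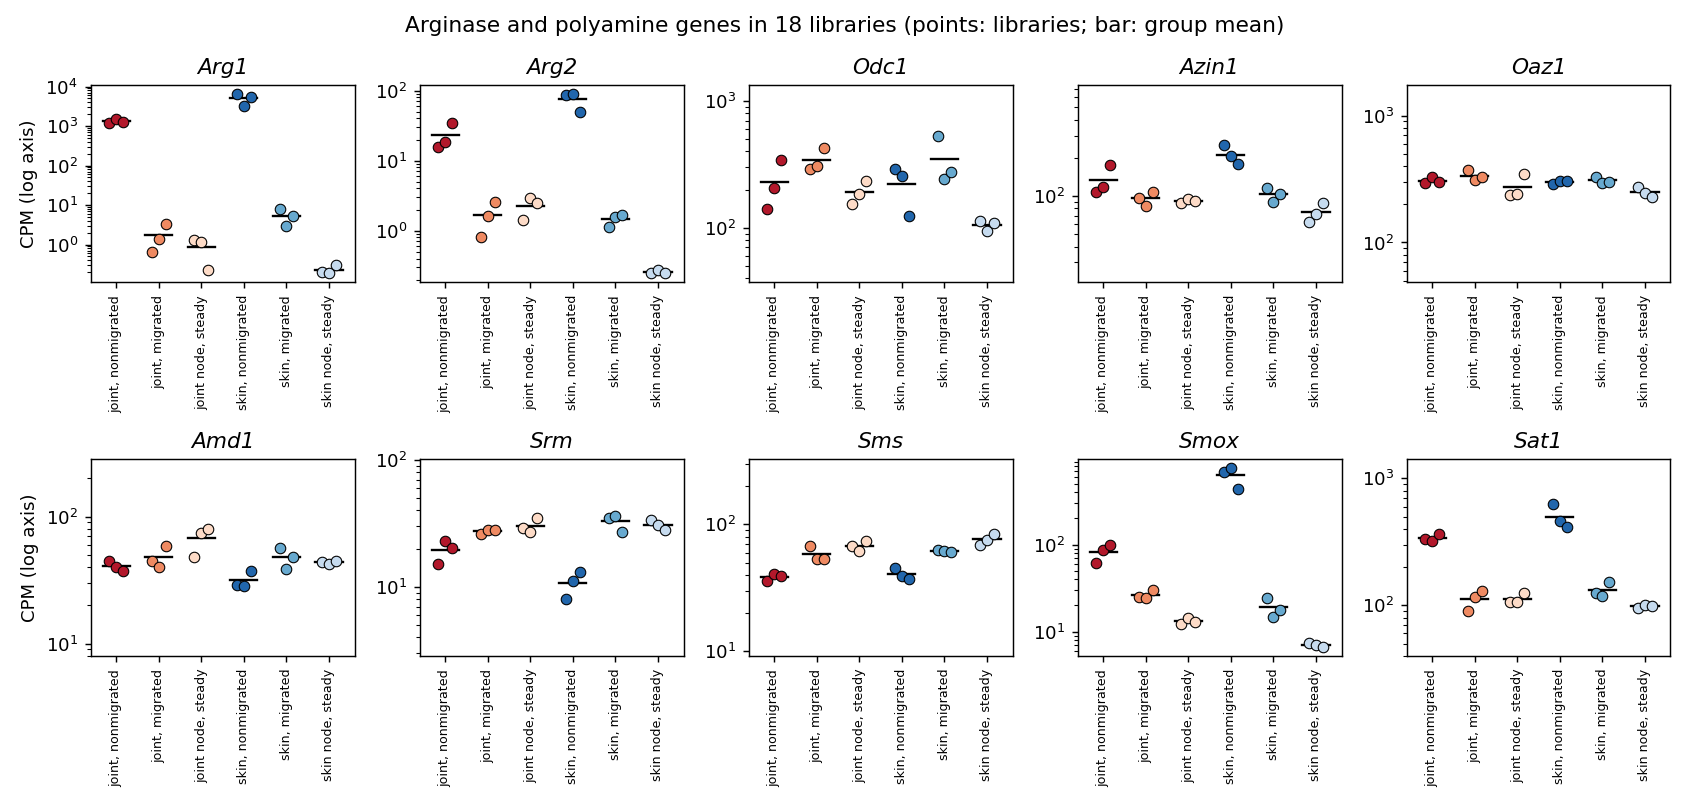
CPM of the 10 genes on a log axis in each of 18 libraries (points, 3 per group) with the group mean (bar). Arg1 runs from 0.185 to 6509 CPM, the nonmigrated groups lying above all others, whereas Oaz1 stays between 229 and 369 CPM. The CPM axes of the 10 panels differ in range.

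Arg1 (ENSMUSG00000019987, chr10:24915221-24927484, minus strand) was the gene of the list with the widest range. Joint nonmigrated libraries held 1208, 1473 and 1246 CPM, and skin nonmigrated libraries 6509, 3157 and 5579 CPM. That was 0.105 to 0.125% of all counts in the joint and 0.275 to 0.541% in the skin. Per kilobase of exon, Arg1 ranked 11 of 49326 genes in skin nonmigrated and 72 in joint nonmigrated cells by the group mean, so it was among the most abundant transcripts there. In cells that had reached the node it was close to absent: joint migrated libraries held 0.657, 1.38 and 3.32 CPM. Skin migrated libraries held 7.73, 3.00 and 5.32 CPM. No migrated library came near a nonmigrated one. Arg1 was lower in migrated cells by a log2 fold change of -9.51 in the joint (SE 0.654, adjusted p = 7.83e-07) and -9.89 in the skin (SE 0.661, adjusted p = 5.16e-07). By size of the fold change it ranked 8 of 16777 genes in the joint and 91 in the skin. The 2 changes differed by 0.38 (95% confidence interval -1.10 to 1.86, adjusted p = 0.756), or by -0.40 without joint migrated library 3, and a difference between the sites inside that interval was not detectable.

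In the steady-state nodes Arg1 was lower still. The joint node held 1.29, 1.13 and 0.222 CPM, and the skin node 0.202, 0.185 and 0.306 CPM, which were 8 to 10 counts a library in the latter. From the highest to the lowest mean the order was skin nonmigrated, joint nonmigrated, skin migrated, joint migrated, joint steady state and skin steady state. The first 3 groups were separated by gaps, while each of the last 4 overlapped its neighbour in that order. Against the steady state, Arg1 was higher in skin migrated cells (log2 fold change 4.57, SE 0.712, adjusted p = 8.67e-05), and for joint migrated cells the value was 1.05 (SE 0.599, adjusted p = 0.16). These 2 steady-state groups differed in treatment as labelled, and whether the 2 changes differ was not tested.

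Arg1 was also higher in skin than in joint nonmigrated cells, with no overlap (joint minus skin -1.96, SE 0.463, adjusted p = 0.00986; without skin nonmigrated library 3, -1.88, adjusted p = 0.0114). The monocyte and macrophage sum ran the other way, since every joint nonmigrated library lay above every skin one. Lyz2 was its largest part in the joint (10936 to 13894 CPM, against 1062 to 4907 CPM in the skin). Of its markers only Lyz2 and Adgre1 (511 to 697 against 68.3 to 426 CPM) lay apart. The others overlapped, among them Cd68 (640 to 916 CPM in the joint, 671 to 1057 CPM in the skin) and Fcgr1 (217 to 376 and 191 to 557 CPM). The neutrophil sum of 7 markers was also higher in the joint without overlap (5142 to 15990 CPM in the joint, 1584 to 2601 CPM in the skin, none at 0). Of its markers, Csf3r (329 to 579 CPM in the joint, 433 to 631 CPM in the skin) and Cxcr2 (70.3 to 200 and 111 to 164 CPM) overlapped, and the others did not. A sum of 4 markers of alternatively activated macrophages, Chil3, Retnla, Mrc1 and Il4ra, overlapped (1693 to 2458 CPM in the joint, 837 to 2129 CPM in the skin). Other sums were higher in the skin without overlap, as Arg1 was: 6 dendritic cell markers (484 to 771 CPM against 222 to 350 CPM in the joint), 3 endothelial markers (143 to 172 against 52.4 to 69.95 CPM) and 3 keratinocyte markers (23.3 to 272 against 0.299 to 1.78 CPM). Within these lists Itgax, Cd209a and Cdh5 overlapped between the sites. The endothelial sum was mostly Pecam1, which stood at 109 to 145 CPM in skin nonmigrated and 209 to 256 CPM in steady-state node libraries. The T cell sum of 6 markers overlapped (301 to 843 CPM in the skin, 164 to 323 CPM in the joint). The part of these cells in the Arg1 difference was not tested. Between tissue and node the macrophage and neutrophil sums moved with Arg1. A sum of 4 fibroblast markers did so too. It was 79.0 to 223 CPM in joint and 46.1 to 171 CPM in skin nonmigrated libraries, against 1.01 to 1.72 and 1.07 to 1.35 CPM in migrated ones. The part of all these cells in the migration change was not tested.

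Arg2 (ENSMUSG00000021125, chr12:79130777-79156301, plus strand) followed Arg1 at a lower level. Joint nonmigrated libraries held 15.8, 18.6 and 34.8 CPM and skin nonmigrated libraries 87.8, 89.7 and 50.0 CPM. Joint migrated libraries held 0.821, 1.64 and 2.55 CPM and skin migrated libraries 1.12, 1.55 and 1.68 CPM. The tissue groups lay far above the node groups, and skin above joint. Migrated cells were lower by -3.78 in the joint (SE 0.430, adjusted p = 2.17e-05) and by -5.71 in the skin (SE 0.479, adjusted p = 2.61e-06). The difference of 1.92 between these changes missed the threshold (SE 0.591, adjusted p = 0.0684), and it was called by DESeq2 (1.93, adjusted p = 0.0147), in the fit of all 18 libraries (1.92, adjusted p = 0.0282) and with no filter on low counts (1.93, adjusted p = 0.027). It was also called without skin nonmigrated library 3 (2.15, adjusted p = 0.021), without joint migrated library 1 (2.28, adjusted p = 0.0309) and without joint nonmigrated library 3 (2.35, adjusted p = 0.0349). In all, 7 of 18 alternatives called it, 3 of them among the 12 that left out a library. The rest left it uncalled, with an adjusted p of up to 0.149. Among nonmigrated cells the joint was lower by -1.72 (SE 0.383, adjusted p = 0.00727).

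Arg2 was the 1 member called between the steady-state nodes. The joint node held 1.42, 2.92 and 2.46 CPM and the skin node 0.247, 0.278 and 0.244 CPM, without overlap (log2 fold change 3.12, SE 0.436, adjusted p = 0.000524). In the skin node it was higher in inflamed than in steady-state cells (2.51, SE 0.454, adjusted p = 0.000302). In the joint node, inflamed and steady-state libraries overlapped (-0.41, SE 0.364, adjusted p = 0.368). The neutrophil sum was 418 to 821 CPM in the steady-state joint node and 11.1 to 17.95 CPM in the skin node. The monocyte and macrophage sum was also apart, at 394 to 578 and 53.9 to 82.3 CPM. Sums of 5 B cell and 5 proliferation markers were higher in the joint node too, and the T cell and endothelial sums lower. In joint migrated libraries, where Arg2 overlapped the steady state, the neutrophil sum was 34.5 to 89.8 CPM and the macrophage sum 152 to 362 CPM. The part of these cells in the Arg2 difference was not tested. Exons of Arg2 overlap those of Vti1b and Gm48780 on the opposite strand. Counting used default settings, and whether the libraries kept strand was not stated, so how reads in the shared stretch were assigned is not known.

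Per kilobase of exon, Arg1 exceeded Arg2 in every tissue library. The ratio of Arg1 to Arg2 was 23.0 to 50.7 in joint nonmigrated and 22.6 to 71.5 in skin nonmigrated libraries, overlapping between sites. In the nodes it was 0.513 to 0.835 in joint migrated, 1.24 to 4.43 in skin migrated, 0.0577 to 0.581 in joint steady-state and 0.427 to 0.801 in skin steady-state libraries. Thus skin migrated cells were the node group in which Arg1 stayed above Arg2. These ratios were chosen after the levels had been seen.

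Odc1 (chr12:17544794-17551505, plus strand), which encodes the rate-limiting enzyme of polyamine synthesis, did not follow the arginases. Joint nonmigrated libraries held 141, 207 and 341 CPM, joint migrated libraries 293, 306 and 429 CPM, and the ranges overlapped. Skin nonmigrated libraries held 289, 255 and 124 CPM and skin migrated libraries 529, 243 and 274 CPM, again overlapping. The migration changes of 0.58 in the joint (95% confidence interval -0.29 to 1.44, adjusted p = 0.236) and 0.64 in the skin (-0.23 to 1.51, adjusted p = 0.187) did not pass, and their intervals reach past 2-fold. By group mean Odc1 was lowest in the steady-state nodes, at 155, 184 and 233 CPM in the joint node and 113, 93.8 and 109 CPM in the skin node. The joint node values lay inside the range of the joint nonmigrated libraries. Inflamed cells were higher in the skin node (1.75, SE 0.262, adjusted p = 6.03e-05). In the joint node the difference was 0.88 (SE 0.256, adjusted p = 0.0116), with no overlap but under 2-fold; without joint steady-state library 3 it was 1.06 (adjusted p = 0.0087). The sum of 5 proliferation markers was 450 to 823 CPM in the migrated groups and 47.6 to 119 CPM in the steady-state groups. The dendritic cell sum was also higher in migrated cells, at 950 to 2209 against 484 to 789 CPM in the joint node. In the skin node it was 1478 to 1955 against 484 to 595 CPM. The B cell and endothelial sums went the other way at both sites. The part of proliferation and of these cells in the Odc1 difference was not tested.

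The regulators of ornithine decarboxylase split. Oaz1 (chr10:80826656-80829290, plus strand) was at 229 to 369 CPM in all 18 libraries, and its migration change was 0.13 in the joint (95% confidence interval -0.09 to 0.35, adjusted p = 0.292) and 0.05 in the skin (-0.18 to 0.27, adjusted p = 0.724). A 2-fold change of its transcript lay outside both intervals. Azin1 (chr15:38487427-38519266, minus strand) held 252, 206 and 179 CPM in skin nonmigrated and 115, 89.95 and 104 CPM in skin migrated libraries. These groups did not overlap, and the change was just past 2-fold (-1.05, SE 0.195, adjusted p = 0.000782). It fell under 2-fold without skin migrated library 2 (-0.96, adjusted p = 0.00459) or without skin nonmigrated library 1 (-0.90, adjusted p = 0.00423). In the joint Azin1 held 107, 119 and 175 CPM in nonmigrated and 95.7, 83.6 and 108 CPM in migrated libraries, overlapping (-0.48, SE 0.193, adjusted p = 0.0537). The antizyme paralog Oaz2, outside the 10, stood at 45.3 to 53.2 CPM in joint nonmigrated and 23.8 to 27.7 CPM in joint migrated libraries, just under 2-fold (-0.97, adjusted p = 8.72e-05). Its skin value was likewise -0.94 (adjusted p = 0.000118).

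Srm and Sms were higher in migrated cells, opposite to the arginases. Srm (chr4:148591503-148594993, plus strand) held 8.04, 11.2 and 13.2 CPM in skin nonmigrated and 35.2, 36.2 and 27.3 CPM in skin migrated libraries. Migrated cells were higher in every library (1.60, SE 0.204, adjusted p = 5.19e-05). In the joint Srm held 15.1, 22.8 and 20.3 CPM in nonmigrated and 26.1, 28.0 and 28.3 CPM in migrated libraries, higher without overlap but under 2-fold (0.50, SE 0.196, adjusted p = 0.0454). The joint change minus the skin change was -1.09 (SE 0.280, adjusted p = 0.0368). This call was lost without 9 of 12 libraries in turn (adjusted p = 0.0623 to 0.0924), which were all but joint nonmigrated library 1 and skin libraries nonmigrated 3 and migrated 3. Steady-state nodes held 27.1 to 35.1 CPM, a level like that of migrated cells. Lymphocyte markers moved the same way as Srm and Sms: the T cell sum was 1405 to 1953 CPM in migrated and 164 to 843 CPM in nonmigrated libraries. The sum of 5 B cell markers was 630 to 879 CPM in joint migrated against 102 to 260 CPM in joint nonmigrated libraries, and 106 to 190 CPM against 4.56 to 11.4 CPM in the skin. The dendritic cell sum was also higher in migrated cells, at 950 to 2209 against 222 to 350 CPM in the joint. In the skin it was 1478 to 1955 against 484 to 771 CPM. Its markers Itgax and Cd209a went the other way at both sites, and Xcr1 did in the skin. The proliferation sum was higher in migrated cells in the skin (450 to 793 against 120 to 294 CPM) and overlapped in the joint. The part of these cells and of proliferation in the Srm and Sms differences was not tested.

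Sms (chrX:157443855-157492287, minus strand) was higher in migrated cells at both sites by nearly the same amount. It held 36.1, 40.8 and 39.0 CPM in joint nonmigrated and 67.2, 53.5 and 53.8 CPM in joint migrated libraries (0.59, SE 0.118, adjusted p = 0.00119). Skin nonmigrated libraries held 45.7, 39.1 and 37.0 CPM and skin migrated libraries 62.4, 61.7 and 60.9 CPM (0.60, SE 0.118, adjusted p = 0.00115). Neither pair overlapped and neither difference reached 2-fold. Amd1 (chr10:40287458-40302186, minus strand) held 28.4 to 37.3 CPM in skin nonmigrated and 38.8 to 56.6 CPM in skin migrated libraries (0.59, SE 0.180, adjusted p = 0.0143). In the joint its ranges of 37.1 to 44.7 and 39.99 to 58.7 CPM overlapped (0.23, SE 0.177, adjusted p = 0.286). Amd2 was counted at group means of 0.227 to 0.539 CPM. Reads aligned to both genes are left out under the counter's default, so the Amd1 values rest on reads that aligned to Amd1 alone. How alike the 2 genes are outside their coding parts was not compared. Myc, a transcription factor known to drive Odc1 and Srm, was higher in migrated cells in the joint (1.00, adjusted p = 0.00503) and in the skin (1.94, adjusted p = 7.55e-05). It stood higher still in the steady-state nodes, at 134 to 202 CPM against 60.8 to 104 CPM in migrated libraries. Odc1 went the other way there (93.8 to 233 against 243 to 529 CPM). A part of Myc in these levels was not tested.

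Smox (ENSMUSG00000027333, chr2:131491496-131525922, plus strand) was the member in which the sites differed most. Skin nonmigrated libraries held 682, 769 and 433 CPM against 61.3, 87.1 and 100.3 CPM in joint nonmigrated libraries. In migrated cells the levels lay closer, at 24.6, 14.7 and 17.5 CPM in the skin and 25.0, 24.6 and 29.7 CPM in the joint, and these ranges overlapped at their edges. Migrated cells were lower by -5.06 in the skin (SE 0.294, adjusted p = 1.87e-07) and by -1.65 in the joint (SE 0.254, adjusted p = 0.000203). The changes differed by 3.41 (SE 0.361, 95% confidence interval 2.62 to 4.20, adjusted p = 0.00085). This difference lay between 3.23 and 3.64 when any of the 12 libraries was left out, and was 3.61 without skin nonmigrated library 3. In nonmigrated cells alone the joint was lower by -2.93 (SE 0.264, adjusted p = 5.6e-05). Most of the marker sums given above for Arg1 held single markers that overlapped between the sites. As sums, those of macrophages and neutrophils were higher in the joint, the reverse of Smox. Those of the dendritic cell, endothelial and keratinocyte lists were higher in the skin, as Smox was. The part of all these cells in the Smox difference was not tested.

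In the nodes Smox was higher in migrated cells of inflamed mice than in the steady-state groups at both sites. The steady-state joint node held 12.1, 14.3 and 13.003 CPM and the skin node 7.47, 6.92 and 6.60 CPM. The log2 fold change was 1.04 in the joint node (SE 0.161, adjusted p = 0.000128) and 1.47 in the skin node (SE 0.167, adjusted p = 5.16e-06), without overlap in either. The joint value fell under 2-fold without joint migrated library 3 (0.96, adjusted p = 0.000587) or joint steady-state library 1 (0.99, adjusted p = 0.000961).

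Sat1 (chrX:155213132-155216449, minus strand), the other breakdown gene, was lower in migrated cells by similar amounts at the 2 sites. Joint libraries held 330.3, 319.5 and 367 CPM in nonmigrated and 90.7, 116 and 130.03 CPM in migrated cells (-1.59, SE 0.180, adjusted p = 2.13e-05). Skin libraries held 626, 461 and 415 CPM in nonmigrated and 126, 119 and 153 CPM in migrated cells (-1.92, SE 0.182, adjusted p = 6.05e-06). Neither pair overlapped. The changes differed by 0.33 (95% confidence interval -0.21 to 0.88, adjusted p = 0.426). Per kilobase of exon, the ratio of Sat1 to Odc1 was 1.32 to 4.12 in the 6 nonmigrated libraries and 0.292 to 0.684 in the 6 migrated ones, so the transcript of the breakdown gene exceeded that of the synthesis gene in every tissue library and in no migrated one. In the steady state the ratio was 1.04 to 1.31 in the skin node, likewise above 1, and 0.659 to 0.841 in the joint node. This ratio, too, was chosen after the values were seen.

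Counted together, 4 of the 10 genes were called between joint migrated and nonmigrated cells, all lower in migrated cells (Arg1, Arg2, Smox and Sat1). Of all 16777 genes tested, 34.3% were called in that comparison, 18.4% lower. In the skin 6 of the 10 were called, 5 lower (the same 4 and Azin1) and Srm higher, beside 35.4% of all genes (19.7% lower and 15.7% higher). With 10 genes these counts show nothing particular to the list. The median log2 fold change was -0.17 for the 10 genes and 0.02 for all genes in the joint, and -0.50 and 0.01 in the skin. The median absolute log2 fold change was 0.59 for the 10 genes and 0.68 for all genes in the joint, and 1.32 and 0.76 in the skin. For the difference between the sites in the migration change, 2 of 10 were called (Smox and Srm), beside 6.13% of all genes, and at an adjusted p under 0.001 Smox alone, beside 0.119%.

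**Figure D2:**
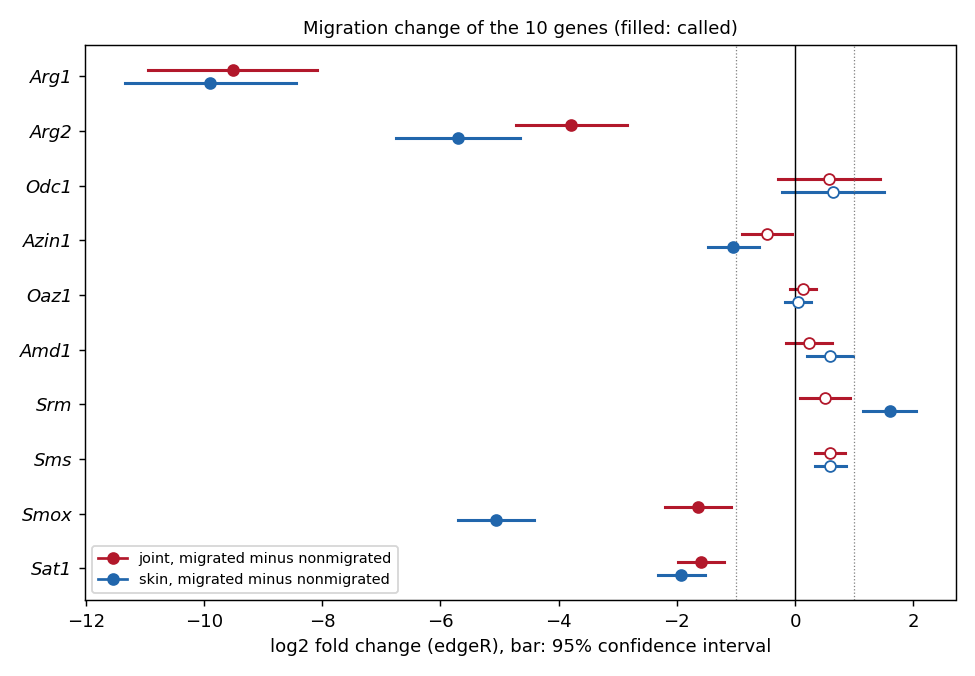
Log2 fold change of migrated minus nonmigrated cells for the 10 genes in joint (red) and skin (blue), from edgeR with 95% confidence intervals (bars). Filled points were called, and dotted lines mark 2-fold. Arg1 lies at -9.51 and -9.89, and the intervals of the 2 sites are apart for Smox and Srm.

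Between nonmigrated cells of joint and skin, Arg1, Arg2 and Smox were called, all lower in the joint, which made 3 of 10 beside 14.3% of all genes (8.86% lower). At an adjusted p under 0.001 Smox alone was called, beside 3.05%. Sat1 (-0.57, adjusted p = 0.034) and Azin1 (-0.67, adjusted p = 0.0248) were lower in the joint under 2-fold, and Srm higher (0.84, adjusted p = 0.0107; 1.01 and past 2-fold without skin nonmigrated library 3, adjusted p = 0.00354). Between migrated cells of joint and skin, 0 of the 10 were called by edgeR, beside 1.14% of all genes (191 genes, while 2770 had an unadjusted p under 0.05, Arg1 alone of the 10). Arg1 had the largest difference there (-1.58, 95% confidence interval -2.69 to -0.47, adjusted p = 0.143), and DESeq2 called that 1 member (-1.58, adjusted p = 0.0285). The other intervals of the 10 genes in this comparison reached from -0.88 to 1.20 at most.

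Against the steady state, 1 of 10 was called in the joint node (Smox, beside 24.2% of all genes) and 4 of 10 in the skin node (Arg1, Arg2, Odc1 and Smox, all higher in inflamed cells, beside 36.5%, 21.5% higher). Azin1 (0.50, adjusted p = 0.00509), Sat1 (0.47, adjusted p = 0.00703) and Oaz1 (0.35, adjusted p = 0.0469) were higher in the inflamed skin node and Sms lower (-0.28, adjusted p = 0.0451), all under 2-fold. Between the 2 steady-state nodes, 1 of 10 was called (Arg2, beside 3.89% of all genes), and Smox was higher in the joint node under 2-fold (0.90, adjusted p = 0.00404). The inflamed and steady-state comparisons share their migrated libraries with the comparisons above. The B cell sum was 630 to 879 CPM in joint migrated and 3724 to 4024 CPM in joint steady-state libraries. In the skin node it was 106 to 190 and 2413 to 3247 CPM. The part of B cells in these differences was not tested.

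**Figure D3:**
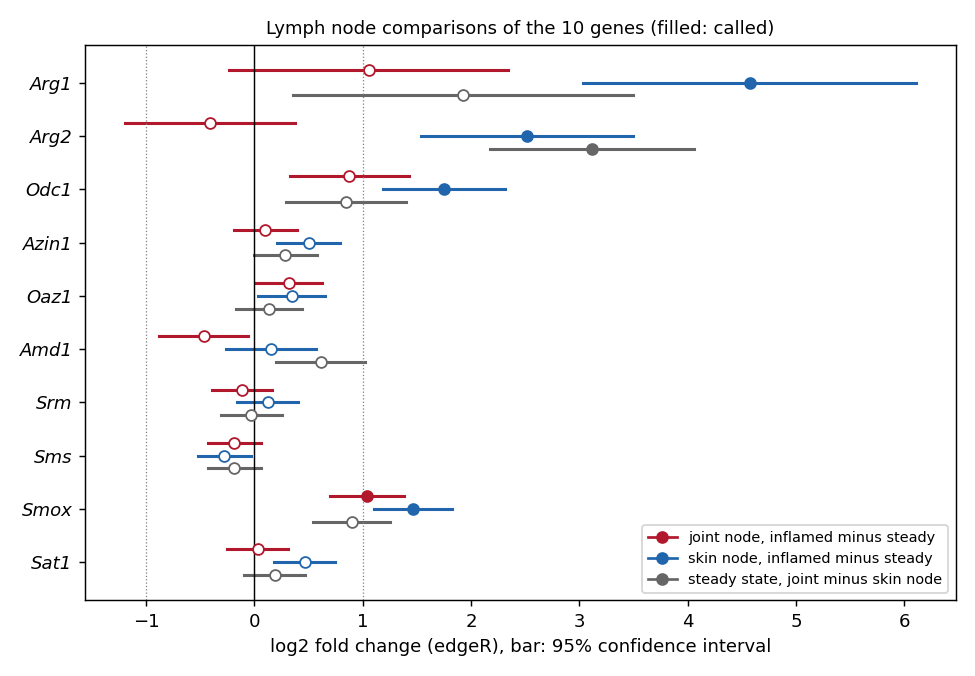
Log2 fold changes of the 10 genes in 3 lymph node comparisons, from edgeR with 95% confidence intervals (bars). Filled points were called, and dotted lines mark 2-fold. Arg1, Arg2, Odc1 and Smox are filled for the skin node (blue), Smox for the joint node (red), and Arg2 for the steady-state comparison (grey).

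The genes around the pathway were read from a list of 44 in 8 roles, of which 40 passed the count filter. Of these, 14 were called in the joint (5 higher and 9 lower in migrated cells) and 16 in the skin (7 higher and 9 lower), which are shares close to those of all genes. The arginine transporter Slc7a2 went with Arg1, at 201 to 302 CPM in joint nonmigrated and 388 to 844 CPM in skin nonmigrated libraries against 0.0934 to 0.686 and 0.999 to 2.93 CPM in migrated ones (-9.72, adjusted p = 7.34e-07, and -8.15, adjusted p = 1.08e-06). Joint migrated libraries held 4 to 32 counts of it, and the joint change ranged from -11.03 to -9.31 over the alternatives. In contrast, Slc7a1, the transporter most cells use, was higher in migrated cells under 2-fold (0.67 in the joint, adjusted p = 0.0122, and 0.52 in the skin, adjusted p = 0.04). Slc3a2, the heavy chain that several amino acid transporters share, was lower in skin migrated cells (-1.63, adjusted p = 2.86e-05), and the joint value was -0.85 (adjusted p = 0.00236).

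Nos2, the competitor of arginase, was lower in migrated cells at both sites. It held 79.2, 171 and 132 CPM in joint nonmigrated and 2796, 2074 and 1868 CPM in skin nonmigrated libraries. Joint migrated libraries held 0.0821, 0.0467 and 0.0858 CPM, which were 2 to 4 counts a library and near the floor, and skin migrated libraries 2.70, 2.65 and 1.37 CPM. The joint lay below the skin in both populations without overlap. The migration changes were -10.70 in the joint (adjusted p = 8.2e-08, a size that these few counts leave uncertain) and -9.98 in the skin (adjusted p = 2.68e-08). Per kilobase of exon, Arg1 exceeded Nos2 in every tissue library, 17.1 to 30.2 times in the joint and 3.01 to 5.92 times in the skin, and these ranges did not overlap. Nos3, the endothelial synthase, was lower in joint migrated cells (-2.82, adjusted p = 0.00273). Its skin migrated libraries were all at or under the floor, so that skin nonmigrated cells were by their mean at least 3.62-fold higher (against the mean of the 3-count floors). Skin nonmigrated library 1 was itself at its floor (0.180 CPM), so this bound rests on libraries 2 and 3 (0.468 and 0.884 CPM). The citrulline recycling enzyme Ass1 moved apart by site: it held 121 to 148 CPM in joint and 361 to 501 CPM in skin nonmigrated libraries, with changes of 0.39 (adjusted p = 0.0361) and -1.12 (adjusted p = 5.31e-05). The difference of 1.50 between them was called (SE 0.201, adjusted p = 0.0022).

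**Figure D4:**
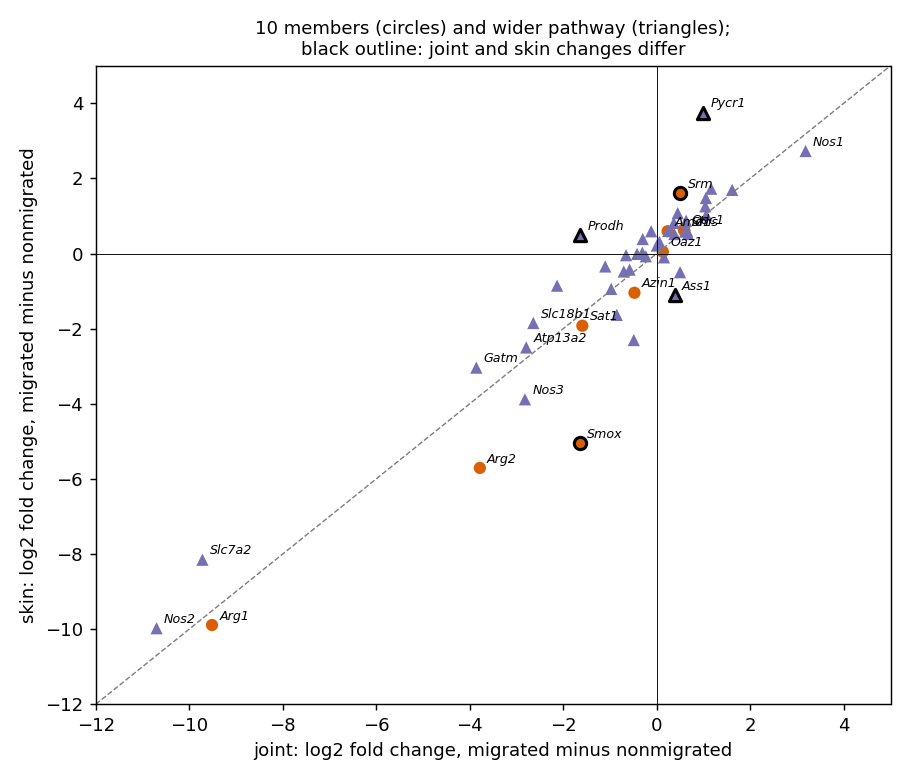
Log2 fold change of migrated minus nonmigrated cells in the joint (x axis) against the skin (y axis) for the 10 genes (circles) and the tested genes of the wider list (triangles). The dashed line marks equal change, and a black outline marks Smox, Srm, Ass1, Pycr1 and Prodh, for which the difference was called. Arg1, Nos2 and Slc7a2 lie farthest down on both axes.

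Routes that draw on ornithine or feed the synthases went several ways. Of 7 genes linking ornithine to proline and glutamate, Aldh18a1, which starts proline synthesis, was higher in migrated cells at both sites (1.61, adjusted p = 1.51e-05, and 1.69, adjusted p = 1.18e-05). Pycr1, which ends it, was higher in the skin (3.75, adjusted p = 0.00014) from 0.0600 to 0.416 CPM to 1.95 to 4.24 CPM, whereas the joint value was 1.00 (adjusted p = 0.075). Prodh, which breaks proline down, was lower in the joint (-1.64, adjusted p = 0.00141), and its skin value was 0.49 (adjusted p = 0.28). Oat, which turns ornithine toward glutamate, was near level (-0.42, adjusted p = 0.0321, and -0.01, adjusted p = 0.955). In the methionine cycle and salvage, 2 of 8 were higher in the joint (Ahcy and Mtap) and 3 in the skin (the same and Apip, named after its value of 1.08 was seen, adjusted p = 0.000923), beside 16% and 15.7% of all genes called higher. Ahcy, which clears S-adenosylhomocysteine, rose by 1.16 (adjusted p = 0.000233) and 1.73 (adjusted p = 1.62e-05). Mtap, which recycles the by-product of Srm and Sms, rose by 1.05 (adjusted p = 0.000111) and 1.48 (adjusted p = 1.13e-05), the joint value falling under 2-fold without joint migrated library 1 (0.96) or joint nonmigrated library 1 (0.99). Mat2a, which makes S-adenosylmethionine, was at -0.12 (adjusted p = 0.514) and 0.59 (adjusted p = 0.00501).

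Gatm and Atp13a2 were lower in migrated cells at both sites. Gatm, the first enzyme of creatine synthesis, held 60.8 to 77.4 CPM in joint and 19.5 to 46.2 CPM in skin nonmigrated libraries and at most 6.54 CPM in migrated ones (-3.86, adjusted p = 4.48e-06, and -3.04, adjusted p = 2.37e-05). Azin2, an antizyme inhibitor, was lower in skin migrated cells (-2.30, adjusted p = 0.000641), with -0.49 in the joint (adjusted p = 0.315). The lysosomal polyamine exporter Atp13a2 held 299 to 491 CPM in joint and 146 to 366 CPM in skin nonmigrated libraries and 40.9 to 59.1 CPM in migrated ones (-2.79, adjusted p = 1.03e-05, and -2.50, adjusted p = 2.21e-05). The vesicular transporter Slc18b1 was called lower too (-2.64, adjusted p = 0.00372, and -1.85, adjusted p = 0.0468), but at 1.13 CPM or less, and the skin call was lost without skin nonmigrated library 3 (-0.91, adjusted p = 0.326), skin nonmigrated library 1 (-2.04, adjusted p = 0.0558), skin migrated library 2 (-1.48, adjusted p = 0.14) or skin migrated library 3 (-1.62, adjusted p = 0.134). Among the hypusination genes, whose products use spermidine to modify Eif5a, Eif5a itself was at -0.23 (adjusted p = 0.111) and -0.07 (adjusted p = 0.612) and Dhps at 0.15 (adjusted p = 0.315) and -0.10 (adjusted p = 0.513). The acetylpolyamine oxidase Paox was at -0.58 (adjusted p = 0.0319) and -0.43 (adjusted p = 0.104).

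In the nodes, 8 of 38 tested genes of the wider list were called in inflamed against steady-state joint cells (7 higher, beside 24.2% of all genes called and 16.9% higher) and 14 of 38 in skin cells (12 higher, beside 36.5% and 21.5%). Slc7a2 and Nos2 were at or under the floor in every steady-state skin library, so their levels in skin migrated cells were at least 25.4-fold and at least 29.4-fold higher. In the joint node Nos2 went the other way (-1.90, adjusted p = 0.0124), from 0.222 to 0.344 CPM in the steady state. Azin2 was at or under the floor in the steady-state joint node and at least 33.2-fold higher in joint migrated cells.

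Genes whose levels across the 18 libraries ran most like those of the members were found by Pearson's r of log2(CPM + 1) among 18156 genes. The points share 6 groups, so r mostly ranks group means, and it is given as a description. Closest to Arg1 were Slc7a2 (0.996), Rusc2 (0.995), Lhfpl2 (0.994), the ubiquitin ligase gene Rnf128 (0.994) and the urokinase gene Plau (0.993). Smox ran most like Egln3 (0.994), a prolyl hydroxylase gene induced in low oxygen, Arg2 like the glutathione reductase gene Gsr (0.987), and Sat1 like the cytokine gene Il1a (0.988). Srm ran most like the ribosome biogenesis gene Bop1 (0.974), Sms like the T cell receptor segment Trav6n-6 (0.978), Odc1 like the RANKL gene Tnfsf11 (0.942) and Azin1 like Rnf11 (0.958). Amd1 (Iba57, 0.883) and Oaz1 (Atp5d, 0.908) had the weakest partners.

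**Figure D5:**
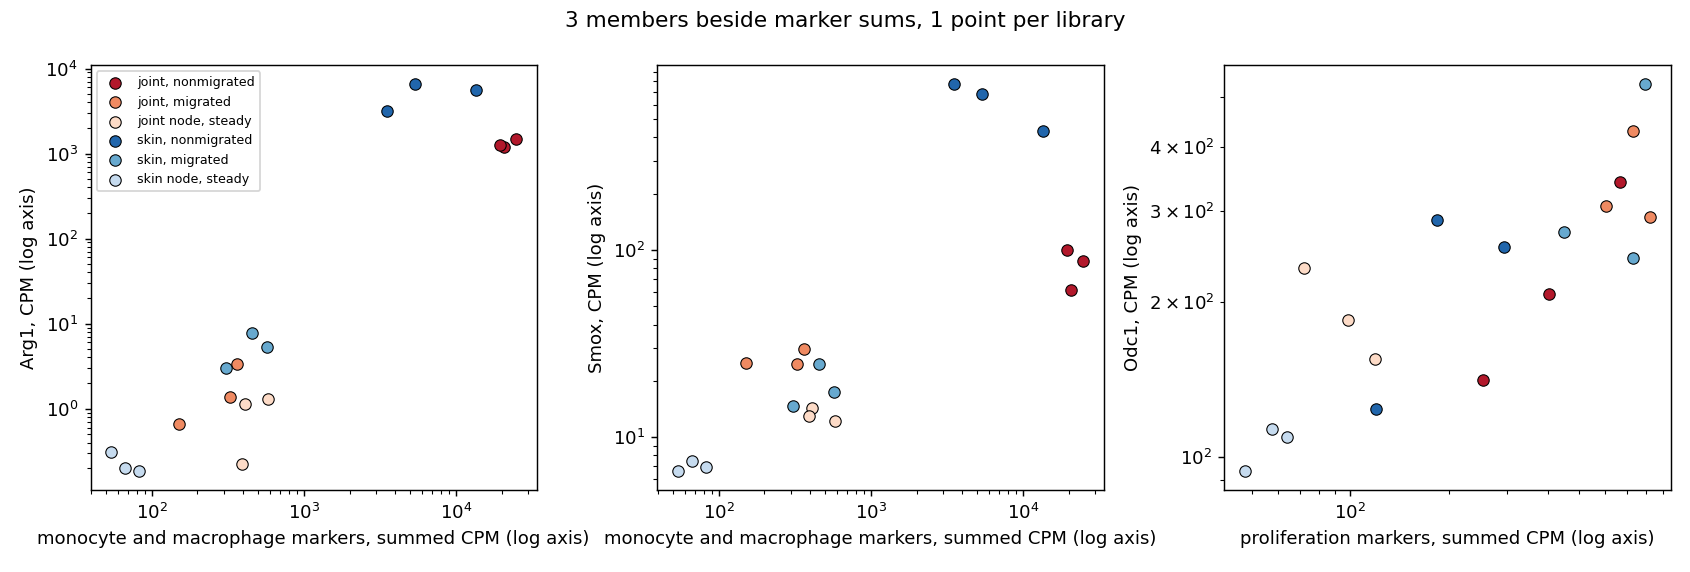
Arg1 and Smox against the summed CPM of 10 monocyte and macrophage markers, and Odc1 against that of 5 proliferation markers, on log axes with 1 point per library and colours for the 6 groups. Skin nonmigrated libraries (dark blue) lie above joint nonmigrated ones (dark red) in Arg1 and Smox while lying to their left in the macrophage sum. Lyz2 was the largest part of that sum in the joint, and most of its other markers overlapped between the sites.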

How the data were processed

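CD45+ leukocytes of 6 groups (3 libraries each, pooled mice) were sequenced in pairs of reads. The deposited values are raw read counts per Ensembl gene: per the study's methods and processing notes, the authors used FastQC, Trim Galore, TopHat2 (mm10) and HTSeq with default settings, with versions not given in the sources used here. The summary lines without a gene (alignments not unique 9.24 to 12.7%, ambiguous 1.84 to 2.37% and no feature 0.0925 to 0.562% of each library) were left out of library sizes and tests. No column belonged to another series. Symbols, positions and transcript sequences came from GENCODE M21 (GRCm38), and no gene position was converted.

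Counts were tested in R 4.3.3 with edgeR 4.0.16 (limma 3.58.1): TMM, filterByExpr with a minimum count of 10, and the quasi-likelihood F test with group as the only term (the study's methods give no model formula). The 12 inflamed libraries (16777 genes) and the 12 lymph node libraries (17107 genes) were fitted apart. The pipeline was tested on simulated data. Replicates of each group differed beyond sampling noise, so all were kept. Floors and intervals cover counting and replicate error only, and since what each pool shares is not given, p-values measure the spread between these libraries. The members and lists were chosen with earlier results of these data known. Named genes were the 10 members, 11 fixed genes of the wider list, the 2 with the largest change among those called per role, and those most correlated with each member. Prodh was added after its values were seen. Alternatives were an adjusted p of 0.001, DESeq2 1.42.0 (size factors or Wald test), no filter, all 18 libraries, only the groups compared, a replicate block and leaving out each library. Figures were drawn with matplotlib 3.10.9.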

Additional observations from a re-analysis of the deposited data

Results flagged for a closer look

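The migration change (migrated minus nonmigrated) differed between joint and skin, by a test of the difference itself in edgeR, for 2 of the 10 genes and 3 of the wider list. The values are log2 differences, joint minus skin. For Smox the value was 3.41 (adjusted p = 0.00085), with Smox lower in migrated cells at both sites and far more so in the skin. It was 1.50 for Ass1 (adjusted p = 0.0022) and -1.09 for Srm (adjusted p = 0.0368). For Prodh it was -2.12 (adjusted p = 0.0254) and for Pycr1 -2.75 (adjusted p = 0.0371). The calls for Srm and Pycr1 did not hold without most single libraries, and that for Prodh was lost without 6 of them. Groups of 3 libraries are too small for a test of single outlying libraries.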

How the results depend on the processing

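No called value changed direction under any alternative, while some small uncalled ones did, among them the Arg1 difference between sites in the migration change (0.38, and -0.40 without joint migrated library 3) and that of Odc1 (-0.32 to 0.37). At an adjusted p under 0.001, 1 of the 10 genes was called for the difference between sites in the migration change and 1 between nonmigrated cells, and of all genes 3586 were called in the joint, 3508 in the skin, 511 between nonmigrated and 0 between migrated cells, 20 for the difference, 2714 in the joint node and 246 between steady-state nodes. DESeq2's Wald test called 1754 genes for the difference and 474 between migrated cells, with 1 member called there (Arg1) and 2 between steady-state nodes (Arg2 and Arg1). The fit of all 18 libraries called 1664 and 407 genes in the same comparisons, and the fit without a filter 327 between migrated cells, with 2 members between steady-state nodes. Leaving out 1 library gave 582 to 2610 genes for the difference, 58 to 171 between migrated and 1745 to 3720 between nonmigrated cells (3720 without skin nonmigrated library 3), and 1 to 3 members for the difference and 0 to 2 in the joint node. Fewer samples enter those fits. Otherwise the cause was not tested. Of the members' single values, 539 of 550 under the other alternatives kept their side of the threshold, and 522 of 540 with a library left out.

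The libraries share replicate numbers, but the numbers were not shown to pair them: deviations of same-numbered joint libraries correlated at 0.021 to 0.254 and of skin libraries at 0.0735 to 0.173, and 5 of 6 joint and 6 of 6 skin libraries correlated best with their own number, a hint from the data and not the design. With the replicate block the counts of members called stayed at 4 in the joint, 6 in the skin, 3 between nonmigrated and 0 between migrated cells. For the difference it called 2, Smox and Arg2 (adjusted p = 0.0329), and not Srm (adjusted p = 0.0706).

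Depth limits the low ends most. Amd2, Slc18b1 and Nos3 lay near the 3-count floor, as did Nos2 and, in part, Slc7a2 in joint migrated cells (2 to 4 and 4 to 32 counts a library), which limits the size of their joint changes, and Arg1 in the steady-state skin node rested on 8 to 10 counts a library.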
